A study of Rattus norvegicus with 4 samples.

Results

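The genes of the cadherin family described here are those whose symbol starts with Pcdh, the protocadherins, or is Cdh followed by a number, the classical and related cadherins, in RNA sequencing of the rat carotid body (CB). Cdh5, the cadherin of endothelial junctions, was left out by the same rule because it marks another cell type. The rule took 71 of the 32883 gene entries measured. There were 3 entries of the protocadherin α cluster (Pcdha), 17 of the β cluster (Pcdhb), 18 of the γ cluster (Pcdhg), 11 protocadherins outside the clusters and 22 cadherins. The CB lies where the carotid artery divides and senses low oxygen in the blood through its glomus cells. CBs were taken from Sprague Dawley rats on postnatal day 5 (neonates) and on postnatal day 21 (adults, as the study calls rats of weaning age), with 2 libraries per age and no other treatment. Per the labels, each library pooled the CBs of 6 pups or of 3 older rats, whereas the methods of the study give other pool sizes. Males and females were not separated, so a library is the average of several animals and of every cell type in the organ.

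Cadherins are calcium-dependent adhesion proteins of the cell surface that bind across the gap between neighbouring cells. Classical cadherins hold on to the actin skeleton through catenins, and cells that carry the same cadherin tend to sort together. The α, β and γ protocadherins lie in 3 gene arrays that follow one another on a chromosome. In the α and γ arrays, each of many variable exons has its own promoter and is spliced to constant exons shared by the array, while β genes are single exons. In neurons, most of these promoters, though not all, are used in small random sets that differ between cells, set with the help of CTCF, cohesin and DNA methylation. The resulting surface code lets a neuron tell its own branches from those of others, and γ protocadherins also support the survival of some neurons.

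The libraries held between 36286191 and 39476110 estimated counts, so that 3 counts, the limit that a count of 0 allows, equal 0.0736 to 0.0845 CPM, the unit of levels scaled to a common library total. The genes of the family took 0.0817% and 0.0888% of all counts in the neonatal libraries and 0.135% in each adult library. Levels below are CPM scaled by TMM factors, which ran from 0.902 to 1.10 and were lower in the neonatal libraries. Without these factors the median log2 fold change of all tested genes would move from 0.00 to 0.25, so changes are given relative to the TMM scale. Log2 fold changes are adult over neonate throughout, with their standard error (SE). Each adjusted p comes from a quasi-likelihood test in edgeR, with the method of Benjamini and Hochberg applied to all 13843 tested genes. A gene was called at an adjusted p under 0.05 and at least a 2-fold change. Levels of different genes are not compared, because counts were not divided by transcript length. In a whole organ, fewer cells of a type and less RNA per cell cannot be told apart. The neonatal libraries were not alike in other tissue: parathyroid hormone (Pth) was at 1773 and 208 CPM in them and at 0 in both adult libraries.

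More members of the family were higher in adults than in neonates. Of the 71 entries, 60 were tested, 1 had no count (Pcdhb1), 1 was removed because its symbol is annotated as a pseudogene (Pcdhgb1) and 9 were under the filter on low counts, which asked for 1 CPM by library size alone, before the TMM factors, in 2 or more libraries. Of the 60, 31 were called higher in adults, where 13.2% of all tested genes were, and 2 were called higher in neonates, where 7.68% of all tested genes were. With no minimum fold, 43 were higher in adults and 5 in neonates, against 31.1% and 31.2% of all tested genes. However, 17 of the 60 passed the filter only through the adult libraries and so had to differ. Of those 17, 16 were called, and 81.7% of all genes that passed in that way were called. Of all 13843 tested genes, 1822 were called higher in adults, and 379 of those were among the 464 that passed only through adult libraries. Among the 41 members that reached 1 CPM by library size in at least 1 library of each age, 15 were called higher in adults. Without adult replicate 1 the number called higher in adults was 17 and without adult replicate 2 it was 13, since fewer members then passed the filter, and with the tested genes kept as they were it was 27 to 34 over the libraries left out. When every gene with a count was fitted, 69 members gave an estimate and 33 were called higher in adults and 3 in neonates, where 10.2% and 5.84% of all genes were. The median log2 fold change of those 69 was 1.06, beside 0.01 for all genes fitted. Without any test, both adult libraries lay above both neonatal ones for 51 members and below them for 8, against 35% and 35.2% of all genes with a count.

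The share of calls differed in size between the groups of the family. The γ cluster had 16 of 17 tested entries called higher in adults, the β cluster 6 of 14 and the α cluster 2 of 3. The protocadherins outside the clusters had 5 of 10 and the cadherins 2 of 16, beside 13.2% of all tested genes. Both calls in the other direction were cadherins, beside 7.68% of all tested genes. Without either adult library, 5 γ entries and 1 α entry passed the filter, and the γ calls fell to 5 and the α calls to 0. With 1 library left out and the tested genes kept, an alternative chosen after seeing the data, the γ calls numbered 15 to 17 and the β calls 2 to 7, with the fewest β calls without adult replicate 2 (2) and without adult replicate 1 (3). With library size alone the β calls numbered 10 and the cadherin calls higher in adults 5. The medians of the log2 fold change over every entry fitted without the filter were 2.31 for γ, 0.98 for β, 2.92 for the 3 α entries, 1.002 for the other protocadherins and 0.36 for cadherins.

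**Figure D1:**
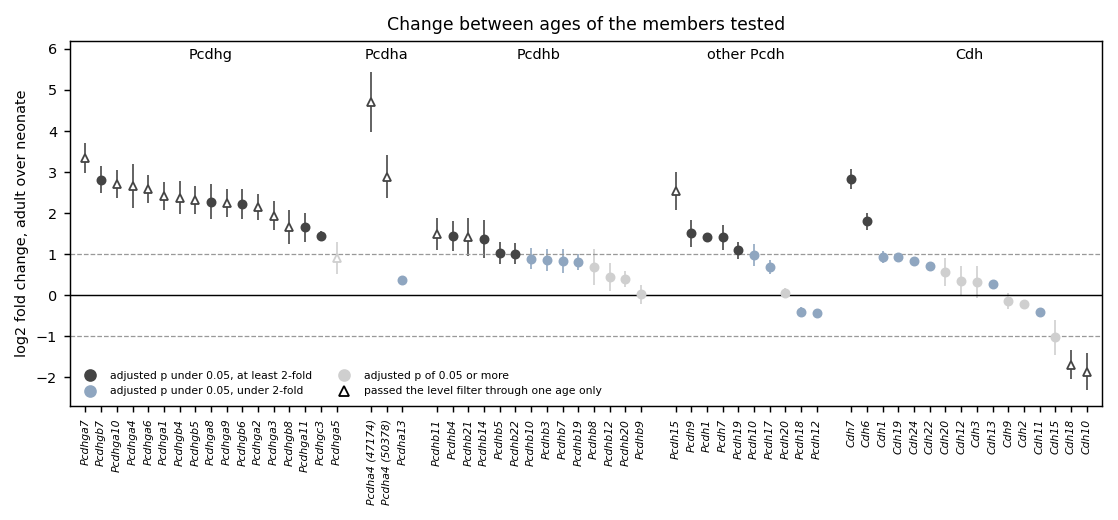
Log2 fold change, adult over neonate, of each tested member by group, with bars for the SE of the fit. Dark points passed the adjusted p and the 2-fold limit, blue-grey points passed the adjusted p only, light grey points passed neither, and open triangles reached the filter through 1 age alone. The γ points lie between 0.92 and 3.35, while the cadherins run from -1.86 to 2.83.

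Of the 3 clusters, the γ cluster as a whole differed most between the ages. Its summed level was 25.8 and 26.6 CPM in the neonatal libraries and 110.4 and 93.3 CPM in the adult libraries, a 3.89-fold difference of the age means. A sum over a cluster does not depend on how reads that fit several of its genes are divided between them. How far each sum holds reads of the shared constant exons was not determined, so the sums of different clusters may cover unlike parts of the genes. The β sum was 39.0 and 42.8 CPM in neonates and 67.6 and 70.2 CPM in adults, 1.68-fold. The α sum was 113 and 108 CPM in neonates and 162 and 130 CPM in adults, 1.32-fold. The neonatal and adult libraries did not overlap for any of the 3 sums. With 2 libraries per age an exact permutation test cannot give a two-sided p below 0.333, so these sums carry no test. The γ to β ratio of the sums went from 0.661 and 0.621 in the neonatal libraries to 1.63 and 1.33 in the adult libraries. The γ to α ratio went from 0.228 and 0.246 to 0.682 and 0.718. Within a library these ratios need no scaling factor, and in both the adult values lay above the neonatal ones. The β to α ratio was 0.345 and 0.396 in neonates and 0.418 and 0.540 in adults.

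**Figure D2:**
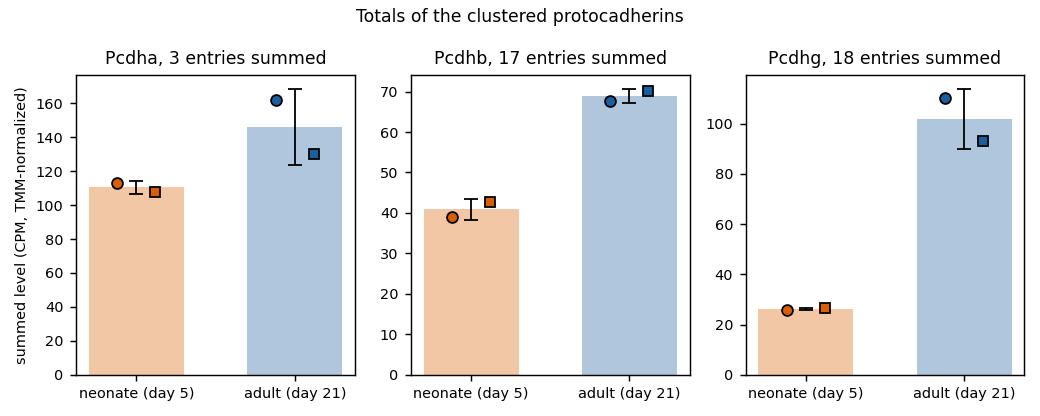
Summed level in CPM of the α, β and γ clusters in each of the 4 libraries. Each point is 1 library, and bars give the mean of each age with its standard deviation. The γ sum lies at 25.8 and 26.6 CPM in neonates and at 110.4 and 93.3 CPM in adults, a 3.89-fold difference, beside 1.68-fold for β and 1.32-fold for α.

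The promoters of the β and γ genes are shown here because each entry of these arrays has a promoter of its own. The windows come from the RefSeq promoter table of the rat assembly GRCr8, which is not the build the reads were mapped to, and hold 40 bases of the plus strand. Capitals mark the run of 10 letters held by the most β promoters, GGTGGCGCTG, and the run of 7 letters held by the most γ promoters, CGCTGTT. Both contain CGCTG, and their lengths were chosen after these promoters had been read, so their number in these promoters is a description only. The β windows are:
Pcdhb3 (chr18:29285602-29285641): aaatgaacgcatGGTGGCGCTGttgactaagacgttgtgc
Pcdhb9 (chr18:29379246-29379285): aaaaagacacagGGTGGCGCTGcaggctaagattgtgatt
Pcdhb10 (chr18:29391776-29391815): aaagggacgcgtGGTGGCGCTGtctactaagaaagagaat
Pcdhb19 (chr18:29478762-29478801): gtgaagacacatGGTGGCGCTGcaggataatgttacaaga
Pcdhb20 (chr18:29485808-29485847): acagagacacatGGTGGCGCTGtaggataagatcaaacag
The γ windows are:
Pcdhga7 (chr18:29794208-29794247): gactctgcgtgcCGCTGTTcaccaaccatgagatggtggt
Pcdhga8 (chr18:29805003-29805042): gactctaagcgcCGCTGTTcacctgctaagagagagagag
Pcdhga10 (chr18:29825817-29825856): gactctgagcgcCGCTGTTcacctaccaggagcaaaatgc
Pcdhga11 (chr18:29834359-29834398): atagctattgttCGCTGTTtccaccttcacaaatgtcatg

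Promoters were found for 51 of the 70 member symbols, each from 250 bases before to 50 bases after the start of the gene, and both strands were searched. GGTGGCGCTG stood in 14 of the 15 β promoters and in 74 of all 33469 promoters of the table, or 0.221%. It began 46 to 229 bases before the start of the β genes, with a median of 68.5. CGCTGTT stood in 10 of the 12 γ promoters and in 662 of all promoters, or 1.98%. In 9 of those γ promoters it lay on the strand of the gene, 22 to 235 bases before the start, and in Pcdhgc3 it lay on the other strand. Of the β promoters only that of Pcdhb3 held CGCTGTT, and no γ promoter held the longer run. Neither run occurred in the 10 promoters of protocadherins outside the clusters or in the 13 cadherin promoters. A match describes the letters only. Pcdhb19, which passed the adjusted p, and Pcdhb9, which did not, each hold the β run.

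In the γ cluster the rise ran through nearly all entries rather than through 1 abundant gene. Pcdhgc3 (ENSRNOG00000019799), a C-type gene, was at 11.8 and 9.88 CPM in neonates and at 30.9 and 27.9 CPM in adults. Its log2 fold change was 1.44 (SE 0.13, adjusted p = 2.86e-05), and it was the γ entry with the most reads in every library. Its share of all γ counts was 45.6% and 37.2% in neonates and 27.9% and 29.9% in adults, so the A-type and B-type entries gained a larger part of the sum. Which γ entries hold the reads of the shared constant exons was not determined.

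The other 17 γ entries, of the A and B types, differ in the outer adhesion domains that are coded by their own variable exon. In neonates they lay near the filter, from 0.394 to 1.27 CPM in replicate 1 and from 0.251 to 2.37 CPM in replicate 2. In adults they lay from 1.52 to 8.39 CPM in replicate 1 and from 1.49 to 6.22 CPM in replicate 2. Counts per entry ran from 9 to 85 in neonates and from 59 to 342 in adults. Both adult libraries lay above both neonatal ones for all 18 γ entries, beside 35% of all genes with a count. For the 12 γ entries that passed the filter only through the adult libraries, the filter on library size fixed that order. From the age means, the sum of the A-type genes was 4.84-fold higher in adults, that of the B-type genes 4.49-fold and Pcdhgc3 2.71-fold, and the difference between the types was not tested. Of the 16 A-type and B-type entries tested, 15 were called higher in adults, beside 13.2% of all tested genes. However, 12 of the 16 passed the filter only through the adult libraries, and 81.7% of all genes that passed in that way were called.

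Pcdhga7 (ENSRNOG00000027290) was at 0.394 and 0.696 CPM in neonates and at 5.92 and 5.27 CPM in adults. Its log2 fold change was 3.35 (SE 0.36, adjusted p = 7.13e-05), about 10.2-fold. Pcdhgb7 (ENSRNOG00000039454) was at 1.27 and 0.807 CPM in neonates and at 8.39 and 6.22 CPM in adults. The change of this B-type gene was 2.81 (SE 0.33, adjusted p = 0.000106), and its ages did not overlap. Pcdhga10 went from 0.648 and 1.03 CPM to 5.92 and 5.12 CPM, a log2 fold change of 2.71 (SE 0.34, adjusted p = 0.00015). Pcdhga8 was less even between the adult libraries, with 0.732 and 1.48 CPM in neonates and 6.995 and 3.78 CPM in adults, and a log2 fold change of 2.28 (SE 0.43, adjusted p = 0.0016). Pcdhga11 was at 1.27 and 2.37 CPM in neonates and reached 6.60 and 4.84 CPM in adults, with a log2 fold change of 1.65 (SE 0.35, adjusted p = 0.0031). The tested γ entry that missed the threshold was Pcdhga5, at 0.732 and 1.03 CPM in neonates and 1.52 and 1.81 CPM in adults, with a log2 fold change of 0.92 (SE 0.39, adjusted p = 0.0655). Pcdhgb1, which is annotated as a pseudogene, was at 0.845 and 1.48 CPM in neonates and at 1.82 and 2.32 CPM in adults. Kept in the fit, it had a log2 fold change of 0.83 (SE 0.40, adjusted p = 0.0962). These last 2 genes were chosen after their values were seen.

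Of the 17 tested γ entries, 12 passed the filter through the adult libraries only. Of those 12, 11 were called, beside 81.7% of all genes that passed in that way. All 5 that reached that limit at both ages were called, beside 13.2% of all tested genes, whichever way those passed. The limit is on library size alone, and on the TMM scale printed here Pcdhga5 and Pcdhga10, which passed through the adult libraries only, stood at 1.03 CPM in neonate replicate 2. The 6 B-type γ entries have fractional counts in at least 1 library, which makes their own values uncertain. Of the 12 γ entries with whole counts, 11 were called higher in adults, beside 13.2% of all tested genes. Most of these entries passed the filter through the adult libraries only.

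**Figure D3:**
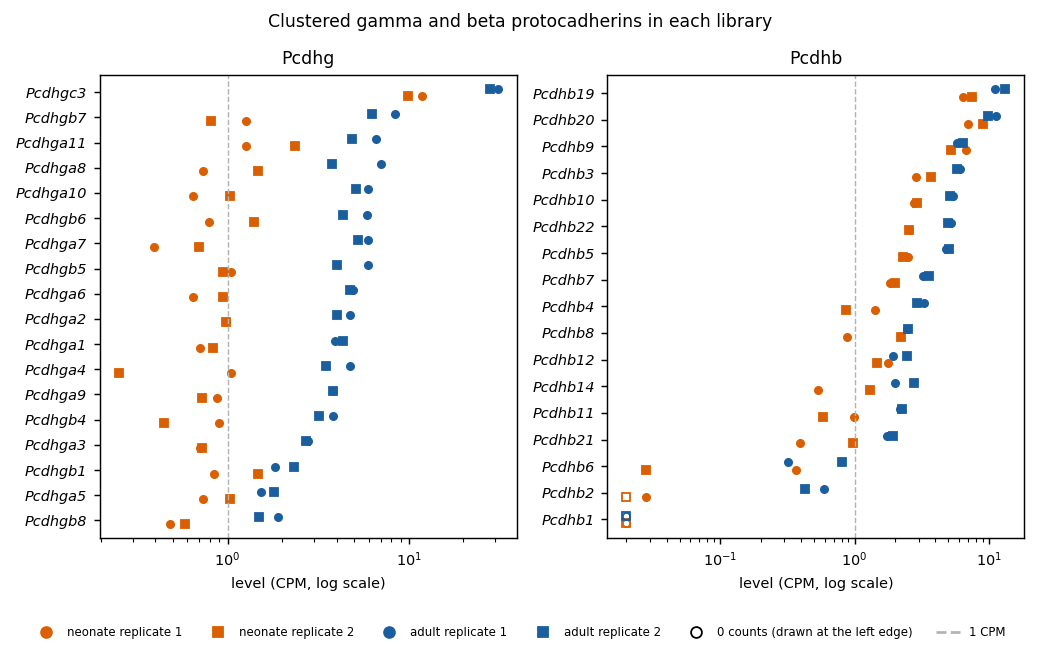
Level in CPM (log axis) of each entry of the β and γ clusters in the 4 libraries, neonates and adults in different colours. The dashed line marks 1 CPM on the same scale and an open symbol at the left edge a count of 0. For all 18 γ entries the adult points lie to the right of the neonatal points, beside 35% of all genes with a count. For Pcdhb9 the ages overlap.

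The β cluster changed less evenly. Of its 17 single-exon genes, Pcdhb19 (ENSRNOG00000039469) was at 6.39 and 7.54 CPM in neonates and 11.1 and 13.3 CPM in adults. It rose by a log2 fold change of 0.81 (SE 0.19, adjusted p = 0.00542), under the 2-fold limit. Pcdhb20 (ENSRNOG00000033123), the next gene of the array in the RefSeq order, was at 7.04 and 9.05 CPM in neonates and at 11.3 and 9.85 CPM in adults, and its log2 fold change of 0.40 (SE 0.20, adjusted p = 0.111) did not pass. It passed with library size alone, at 0.64 (adjusted p = 0.0226), and without neonate replicate 2, at 0.57 (adjusted p = 0.0328). Pcdhb9 (ENSRNOG00000020072) was at 6.79 and 5.23 CPM in neonates and 5.79 and 6.45 CPM in adults, so the ages overlapped (log2 fold change 0.03, SE 0.23, adjusted p = 0.928). The share of Pcdhb9 in the β sum was 17.4% and 12.2% in neonates and 8.57% and 9.21% in adults. Pcdhb9 is also 1 of 5 β entries with fractional counts, so part of its reads was shared with other entries that are not identified here.

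Pcdhb3 was at 2.84 and 3.73 CPM in neonates and 6.14 and 5.80 CPM in adults, with a log2 fold change of 0.86 (SE 0.26, adjusted p = 0.0164). Pcdhb10 was at 2.79 and 2.92 CPM in neonates and 5.45 and 5.14 CPM in adults, with a log2 fold change of 0.89 (SE 0.25, adjusted p = 0.0128). Both missed the threshold without either adult library, with adjusted p values from 0.0595 to 0.0878, as did Pcdhb19 without adult replicate 2 at 0.70 (adjusted p = 0.0637). The 6 β genes called, whose log2 fold changes ran from 1.01 for Pcdhb22 to 1.49 for Pcdhb11, were Pcdhb4, Pcdhb5, Pcdhb11, Pcdhb14, Pcdhb21 and Pcdhb22. A further 4 β genes passed the adjusted p under a 2-fold change, and 4 of the 14 tested did not pass. Both adult libraries lay above both neonatal ones for 14 of the 17, beside 35% of all genes with a count. Pcdhb2, under the filter, had 1 and 0 counts in neonates and 24 and 17 in adults, a ratio of 36.4 with a 95% counting interval of 6.18 to 1470. Pcdhb2 was chosen after its values were seen, and its interval covers counting error only.

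The α cluster is represented by few entries, since the gene models used here give only 3. Pcdha13 (ENSRNOG00000020119) held 96.8% to 99.8% of the α counts in each library and thus follows the α sum. Which entry holds the reads of the shared constant exons was not determined, so the level of Pcdha13 need not be that of its own variable exon. The values below are those of the Pcdha13 entry. Pcdha13 was at 113 and 108 CPM in neonates and 158 and 126 CPM in adults. Its log2 fold change of 0.36 (SE 0.11, adjusted p = 0.0158) passed the adjusted p but was under 2-fold. Without neonate replicate 2 it was at 0.31, and without adult replicate 1 at 0.22. The Pcdha4 entry with more reads (ENSRNOG00000047174) had 7 and 0 counts in neonates and 112 and 100 in adults. These are 0.197 and 0 CPM against 2.75 and 2.52 CPM, and the fitted log2 fold change was 4.70 (SE 0.73, adjusted p = 0.000554). A fitted value with a library at 0 depends on the prior count of the fit. Without neonate replicate 1 it was 9.67, with all neonatal counts then at 0, without neonate replicate 2 it was 3.70, and limma-voom gave 5.61. The second Pcdha4 entry was at 0.141 and 0.223 CPM in neonates and 1.06 and 1.69 CPM in adults, with a log2 fold change of 2.89 (SE 0.53, adjusted p = 0.00141). Both Pcdha4 entries reached the filter only through the adult libraries, and 2 of the 3 α entries have fractional counts.

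Protocadherins outside the clusters have their own genes and constant structure, and several are known for one cell type or circuit. Pcdh1 (ENSRNOG00000060410), a member found in epithelium and airway, was at 22.3 and 20.6 CPM in neonates and 57.6 and 57.0 CPM in adults, with a log2 fold change of 1.42 (SE 0.09, adjusted p = 6.75e-06). Pcdh17, which has a role in synapse assembly, rose under the 2-fold limit, from 8.20 and 10.5 CPM to 14.8 and 15.2 CPM (log2 fold change 0.68, SE 0.17, adjusted p = 0.00679). Pcdh7, Pcdh9 and Pcdh19, which are all known from neurons, were called with log2 fold changes of 1.41, 1.51 and 1.09, and Pcdh10 was at 0.98, just under 2-fold. In Pcdh20 the ages overlapped, with 45.7 and 54.4 CPM in neonates and 53.4 and 51.2 CPM in adults (log2 fold change 0.06, SE 0.11, adjusted p = 0.617), and it passed the adjusted p with library size alone, at 0.31 (adjusted p = 0.0452).

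Pcdh12 and Pcdh18 were lower in adults. Pcdh12, a protocadherin of endothelial junctions, was at 49.0 and 44.2 CPM in neonates and 34.7 and 33.9 CPM in adults (log2 fold change -0.44, SE 0.09, adjusted p = 0.00319). The summed level of 7 endothelial markers, Cdh5 among them, was 1079 to 1151 CPM in all libraries, and Cdh5 was at 256 and 239 CPM in neonates and 220 and 216 CPM in adults, with a log2 fold change of -0.18. Of the 7, 3 passed the adjusted p upwards, among them Cldn5 at 0.52, and 2 downwards, among them Egfl7 at -0.82. Of all tested genes, 31.1% and 31.2% did so. The level sum thus covers changes of endothelial markers in both directions. The part of these markers in the level of Pcdh12 was not tested. Pcdh18, known from mesenchyme and vessels, was at 24.8 and 20.7 CPM in neonates and 16.2 and 18.1 CPM in adults (log2 fold change -0.41, SE 0.13, adjusted p = 0.0217). With library size alone as the scale, neither passed, at -0.20 (adjusted p = 0.0917) and -0.16 (adjusted p = 0.295). Pcdh18 also missed the threshold without neonate replicate 1, at -0.28 (adjusted p = 0.129), and without adult replicate 1, at -0.30 (adjusted p = 0.145).

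Pcdh15 and Cdh23 form the tip link of hair cells in the inner ear, each binding the other. Pcdh15 had 9 and 8 counts in neonates and 58 and 55 in adults, or 0.254 and 0.223 against 1.42 and 1.39 CPM, with a log2 fold change of 2.54 (SE 0.46, adjusted p = 0.00124), and it passed the filter through the adult libraries only. Cdh23 was under the filter, at 0.958 and 0.835 CPM in neonates and 0.442 and 0.907 CPM in adults, and its ages overlapped.

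Of the 16 cadherins tested, 2 were called higher in adults and 2 in neonates, beside 13.2% and 7.68% of all tested genes. Cdh7 (ENSRNOG00000032490), a type II cadherin known from neural crest and nerve boundaries, was at 1.41 and 1.45 CPM in neonates and 10.6 and 9.73 CPM in adults, with a log2 fold change of 2.83 (SE 0.24, adjusted p = 2.24e-05). Cdh6 (ENSRNOG00000013535), a type II cadherin of kidney and neural crest, was at 3.15 and 2.98 CPM in neonates and 10.5 and 10.9 CPM in adults, with a log2 fold change of 1.80 (SE 0.21, adjusted p = 0.000113). For both the age groups lay well apart and the libraries of an age were close.

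Cdh10 and Cdh18, type II cadherins of the nervous system, were lower in adults. Cdh10 was at 1.77 and 1.503 CPM in neonates and at 0.319 and 0.580 CPM in adults (log2 fold change -1.86, SE 0.45, adjusted p = 0.00598). Cdh18 was at 2.48 and 2.53 CPM in neonates and 0.810 and 0.731 CPM in adults (log2 fold change -1.70, SE 0.35, adjusted p = 0.00279). Both reached 1 CPM only in the neonatal libraries, and so had to differ. Cdh8, under the filter and chosen after its values were seen, had 20 counts in each neonatal library and 5 and 2 in adults. Without adult replicate 1, Cdh10 had a log2 fold change of -1.46 and did not pass (adjusted p = 0.054). The summed level of 8 sympathetic neuron markers was 2321 and 2125 CPM in neonates and 1771 and 1498 CPM in adults. Of the 8, 3 were called higher in neonates, beside 7.68% of all tested genes. The part of that list in the lower cadherins was not tested.

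The cadherins with the most reads changed less than 2-fold. Cdh19 (ENSRNOG00000029841), a cadherin of the Schwann cell lineage, was at 138 and 146 CPM in neonates and 262 and 280 CPM in adults, with a log2 fold change of 0.93 (SE 0.08, adjusted p = 2.28e-05). Other genes of Schwann and sustentacular cells moved in different directions. The log2 fold change of Sox10 was -0.31 (adjusted p = 0.0134), that of S100b was -0.02 (adjusted p = 0.863) and that of Gfap was 1.96 (adjusted p = 3.83e-05). Their part in the change of Cdh19 was not tested.

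Cdh11, a cadherin of mesenchymal cells, fell from 160 and 166 CPM to 116 and 131 CPM (log2 fold change -0.40, SE 0.08, adjusted p = 0.00261), under the 2-fold limit. Library size alone took that call away, at -0.16 (adjusted p = 0.169). The summed level of 7 fibroblast markers was 13160 and 15710 CPM in neonates and 17020 and 18840 CPM in adults. The largest parts of that sum, Col1a1 and Col3a1, did not pass, at 0.13 and 0.30 (edgeR adjusted p = 0.376 and 0.0708). The other 5 passed the adjusted p upwards, beside 31.1% of all tested genes. The part of that list in the change of Cdh11 was not tested. Cdh2, the N-cadherin of neurons and many mesenchymal cells, was at 116 and 131 CPM in neonates and 112 and 99.4 CPM in adults. Its log2 fold change of -0.22 (SE 0.09, adjusted p = 0.0612) did not pass, and turned to 0.02 with library size alone. Cdh2 passed the adjusted p without neonate replicate 1, at -0.32 (adjusted p = 0.024), and without adult replicate 1, at -0.28 (adjusted p = 0.0416). Cdh13, a cadherin anchored in the membrane by a lipid, was at 62.0 and 56.0 CPM in neonates and 67.8 and 74.1 CPM in adults (log2 fold change 0.27, SE 0.09, adjusted p = 0.0346). It missed the threshold without neonate replicate 2 and without adult replicate 2, at 0.18 and 0.23 (adjusted p = 0.174 in each).

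Cdh1, the E-cadherin of epithelium, was at 9.41 and 9.13 CPM in neonates and 16.7 and 18.9 CPM in adults (log2 fold change 0.94, SE 0.14, adjusted p = 0.000497). Pth was at 1773 and 208 CPM in those neonatal libraries and 0 in adults, and the epithelial marker Epcam was at 15.9 and 4.15 CPM in neonates and 9.28 and 6.12 CPM in adults. Of the 8 parathyroid and epithelial markers 4 were tested, and 3 of them were called higher in neonates, beside 7.68% of all tested genes. Among the 3 was the epithelial keratin Krt8, at 11.1 and 5.62 CPM in neonates and 1.47 and 1.61 CPM in adults (log2 fold change -2.44, adjusted p = 0.000372). The part of that list in the level of Cdh1 was not tested. Cdh9, a type II cadherin of neurons, was at 28.6 and 47.6 CPM in neonates and 34.3 and 35.3 CPM in adults, with the widest gap between neonatal libraries among the named cadherins (log2 fold change -0.13, SE 0.19, adjusted p = 0.576). The sign for Cdh9 turned to 0.11 with library size alone and to 0.27 without neonate replicate 2, while without neonate replicate 1 it was at -0.46 (adjusted p = 0.00322). Cdh15, the cadherin of muscle cells, was at 1.35 and 1.64 CPM in neonates and 0.540 and 0.932 CPM in adults (log2 fold change -1.02, SE 0.43, adjusted p = 0.0628). Without neonate replicate 1 it was called, at -1.17 (adjusted p = 0.0393). The skeletal muscle markers summed to 22.2 and 32.4 CPM in neonates and 31.1 and 41.5 CPM in adults, so the ages overlapped, with Myod1 at 0 in every library. Of the 4 tested, only Des passed, at 1.05 (edgeR adjusted p = 0.00114), and it is also in the smooth muscle and pericyte list. Acta1, Mylpf and Tnnt3 did not pass, at -0.67, -0.54 and 0.27. The part of that list in the level of Cdh15 was not tested. Cdh4, the R-cadherin of retina and nerve, had 0, 0 and 0 counts and then 3 in adult replicate 2, at the limit that a count of 0 allows. Of the remaining cadherins, Cdh22 and Cdh24 rose by 0.71 and 0.83 on the log2 scale.

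**Figure D4:**
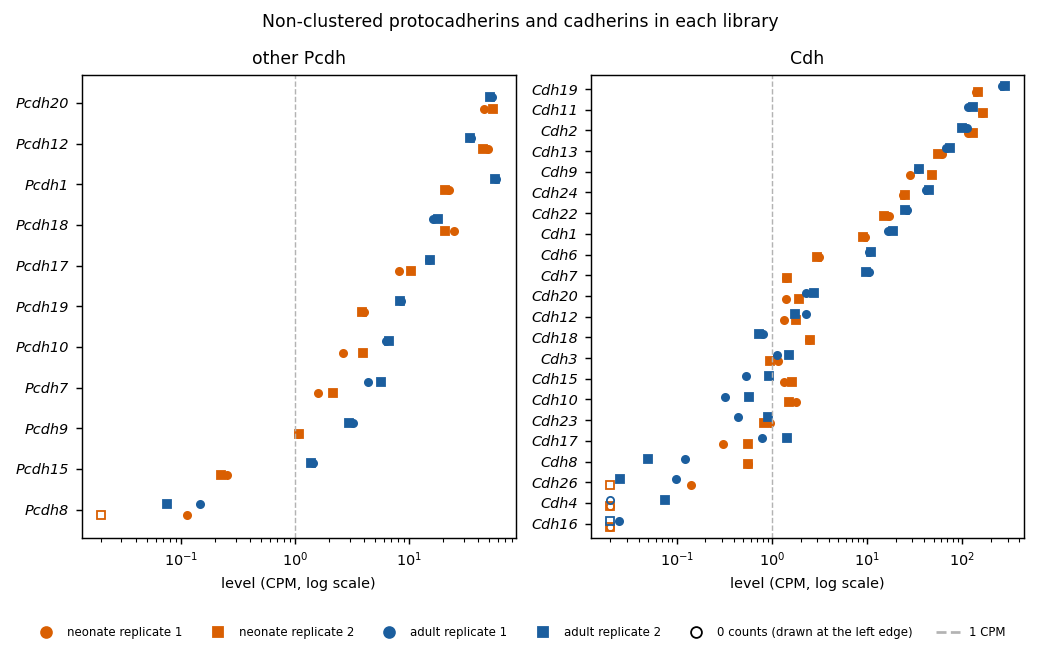
Level in CPM (log axis) of each protocadherin outside the clusters and of each cadherin in the 4 libraries, neonates and adults in different colours. The dashed line marks 1 CPM and an open symbol at the left edge a count of 0. Cdh6, Cdh7 and Pcdh1 are higher in both adult libraries than in either neonatal library, while Cdh10 and Cdh18 are lower.

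Several other marker lists moved with age beside these genes. The 8 proliferation markers summed to 632 and 538 CPM in neonates and to 132 and 133 CPM in adults. All 8 were called higher in neonates, beside 7.68% of all tested genes. The smooth muscle and pericyte markers summed to 1271 and 1310 CPM in neonates and 2067 and 2185 CPM in adults. The largest rise in that list was that of Rgs5, from 302 and 265 CPM to 1009 and 971 CPM. Of its 8 genes, 5 passed the adjusted p upwards and 1 downwards, beside 31.1% and 31.2% of all tested genes. The macrophage markers summed to 95.2 and 106.6 CPM in neonates and to 156 and 150.0 CPM in adults. The glomus cell markers summed to 5267 and 3860 CPM in neonates and 4481 and 3719 CPM in adults, so the ages overlapped. The part of these lists in the changes of the cadherin family was not tested.

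Catenins bind the tails of classical cadherins inside the cell. Of 8 catenins and related proteins tested, 0 were called in edgeR in either direction, 3 passed the adjusted p upwards and 2 downwards, near the 31.1% and 31.2% of all tested genes that did so. Ctnnb1 (β-catenin) had a log2 fold change of 0.93 (SE 0.09, adjusted p = 3.05e-05) and Ctnnd1 (p120-catenin) one of 0.60, while Jup (plakoglobin) had one of -0.47. Ctnna1 (α-catenin), which links the complex to actin, was at -0.11 (adjusted p = 0.283).

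Of 17 tested genes known to act on the choice of clustered protocadherin promoters, 5 were called higher in adults and 0 in neonates in edgeR, beside 13.2% and 7.68% of all tested genes. With no minimum fold, 11 passed the adjusted p upwards and 3 downwards, beside 31.1% and 31.2% of all tested genes. Wapl, which unloads cohesin from DNA, had a log2 fold change of 1.38 (SE 0.10, adjusted p = 1.21e-05). Tet1, Tet2 and Tet3, which oxidise methylated cytosine, had log2 fold changes of 1.02, 1.27 and 1.75, and Dnmt3b, which sets new methylation, one of 1.05. The maintenance methyltransferase Dnmt1 fell by 0.58 on the log2 scale. Ctcf, whose protein anchors the promoter loops, had a log2 fold change of -0.01 (SE 0.08, adjusted p = 0.932), and the cohesin subunit Rad21 one of -0.04 (adjusted p = 0.68). These lists describe RNA levels in the whole organ and do not show which cells hold them.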

How the data were processed

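CBs of neonatal and adult rats were profiled by RNA sequencing of total RNA after poly(A) selection, with 2 libraries per age named biological replicates in the labels. The authors deposited estimated counts per gene, which are not normalized. Per the submitters' processing notes and the methods, reads were mapped to Rnor_6.0 and quantified with Salmon 1.5.2. Salmon divides reads that fit several transcripts between them, and 13 of the 71 members have fractional counts in at least 1 library.

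The estimates were rounded to whole counts. R 4.3.3 with edgeR 4.0.16 and limma 3.58.1 was used for the fits, and Python 3.11.15 with pandas 2.3.3 and matplotlib 3.10.9 for sequences and plots. The 636 genes whose symbol RefSeq (GRCr8) annotates as other than protein-coding were removed, and a gene had to reach 1 CPM by library size alone in 2 or more libraries, which left 13843. TMM factors were applied, and the ages were compared with the quasi-likelihood test of edgeR and no covariate. Genes were called under an adjusted p (Benjamini-Hochberg) of 0.05 with at least a 2-fold change. The SE is the log2 fold change divided by the root of the F statistic. Counts of the libraries of an age differed by more than sampling noise (chi-square per degree of freedom 29 and 13.3), so each library is 1 replicate. Totals ran from 36286191 to 39476110. Counting intervals and floors cover counting error only.

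The members and lists were chosen with earlier results of these data known. Genes named are the 5 members of each group with the highest mean CPM, the 5 called with the largest change in each direction without overlap between ages, and Cdh1, Cdh2, Cdh4, Cdh6, Cdh11, Cdh13, Cdh15, Cdh19, Cdh23 and Pcdh15 by identity. Other genes named from the lists were chosen after their values were seen. On simulated data of 13843 genes with 200 changed by a log2 fold change of 2, 195 were called with the right sign and 13 unchanged genes were called. Alternatives were DESeq2 1.42.0, limma-voom, other scaling, filters and gene sets, unrounded counts, members with whole counts only, no minimum fold, a replicate block and each library left out. No correction for transcript length or GC content was made. The summed level of the Schwann cell markers is not reported here.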

Additional observations from a re-analysis of the deposited data

How the results depend on the processing

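The number of members called higher in adults, 31, was 29 to 40 with DESeq2, limma-voom, RLE factors, library size alone, all genes kept, unrounded counts, no filter or a mean of at least 1 CPM, and 43 with no minimum fold. It fell to 6 at a mean of at least 5 CPM, where 22 members were tested. The replicate block gave 32 and 2, and under it Cdh2 passed the adjusted p at -0.22 (edgeR adjusted p = 0.0244). Replicate numbers were not taken as pairs, since same-numbered libraries had a correlation of deviations of -0.0154 over 2 pairs. Leaving out 1 library gave 13 to 33 called, with 17 without adult replicate 1 and 13 without adult replicate 2, because fewer members then pass the filter. With the same genes tested, an alternative chosen after seeing the data, it was 27 to 34. The number higher in neonates, 2, was 5 with no minimum fold, 1 at a mean of at least 1 CPM, 0 at a mean of at least 5 CPM, 3 with no filter and 0 to 3 with 1 library left out. The log2 ratios of the sums were 0.40 for α, 0.75 for β and 1.96 for γ. With library size alone they were 0.64, 0.995 and 2.20, with whole-count members only 4.74 for α (1 entry) and 0.83 for β, and with 1 library left out 0.23 to 0.55, 0.69 to 0.82 and 1.83 to 2.08. The sign of a change that did not pass turned for Cdh2 (0.0182) and Cdh9 (0.11) with library size alone. It turned for Cdh9 without neonate replicate 2 (0.27, and 0.28 with the same genes) and for Pcdh20 without neonate replicate 1 (-0.066 and -0.0575, with a highest value of 0.178 over the libraries left out). It turned for Pcdhb9 without neonate replicate 2 (-0.17 and -0.16) and without adult replicate 2 (-0.0274 and -0.0532), with a highest value of 0.216 over the libraries left out. Cdh9 passed the adjusted p without neonate replicate 1, at -0.46 (edgeR adjusted p = 0.00322). Cdh10 lost its call without adult replicate 1, at -1.46 (edgeR adjusted p = 0.054). Other causes were not tested, and members under 1 CPM in neonates are limited by depth.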

Other observations

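Other members of the cadherin superfamily lie outside the symbols of the protocadherins and cadherins above. Of 12 tested, 2 were called higher in adults and 1 in neonates, a share near the 13.2% and 7.68% of all tested genes. Fat4, a giant cadherin of planar cell polarity, had a log2 fold change of 1.74 (SE 0.19, adjusted p = 7.36e-05). Clstn2, a calsyntenin of synapses, had 0.141 and 0 CPM in neonates and 1.60 and 1.06 CPM in adults, so it passed the filter through the adult libraries only. Dsc2, a desmosomal cadherin of epithelium and heart, had a log2 fold change of -1.21 (SE 0.22, adjusted p = 0.00142). Celsr2 and Celsr3, which guide axons, had log2 fold changes of -0.50 and -0.33. Of 10 tested genes whose proteins bind the inner part of protocadherins, 1 was called in each direction, again near those shares. Pik3r1, a subunit of phosphoinositide kinase, was called higher in adults with a log2 fold change of 1.04. Wasf1, a regulator of actin branching that joins the WAVE complex, was called lower, at -1.43 (SE 0.17, adjusted p = 0.000134). The kinases Ptk2 and Ptk2b, which clustered protocadherins are known to hold in check, had log2 fold changes of 0.48 and 0.65, and the kinase Fyn had one of -0.40. All adjusted p values are from edgeR's quasi-likelihood test, and the genes named here were chosen after their values were seen.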
